A study of Mus musculus with 12 samples.

Results

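Ribosome biogenesis genes were followed in LSK cells, a sorted bone marrow fraction of the mouse that lacks lineage markers, carries KIT and Sca-1, and holds hematopoietic stem cells and multipotent progenitors. The gene group had 56 members among the 35999 genes of the table. It was assembled by function, from RNA polymerase I transcription, nucleolar processing of ribosomal RNA and subunit maturation, and it was picked partly because Mdn1 had one of the smallest p in the comparison of KO with WT. The values of Mdn1 between the genotypes are therefore given as a description with no test, and the other 55 members carry tests. RNA-seq was run on 12 mice with a library each, and the labels give 6 as WT and 6 as KO for Fancg. The KO mice are Fancg-/-, a knockout of a subunit of the Fanconi anemia core complex, and the labels name no treatment in either group. Age, sex and strain of the mice were not given in the sources used here. The question was how mRNA levels in LSK cells differ between both genotypes.

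The ribosome is built in the nucleolus. RNA polymerase I transcribes a long precursor RNA, small nucleolar ribonucleoproteins (snoRNPs) guide its chemical modification, and large assemblies of processing factors cut and fold it into the 40S and 60S subunits. MDN1 is a giant ATPase related to dynein that strips assembly factors, such as the PES1-BOP1-WDR12 complex, from the 60S precursor, where it works beside the complex of PELP1, TEX10 and WDR18. Blood progenitors depend on this pathway, and inherited defects of several of its factors, SBDS and DKC1 among them, cause bone marrow failure.

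Values are called signal here, meaning the estimated reads of a gene after scaling by the size factor of its library. A library held between 1576081 and 2672915 signal units in all, from approximately 1235086 to 2471271 reads, and members took 0.185% to 0.333% of it. The single gene Lars2 took 15.6% to 36.2% of a library. Both shares followed the replicate number. In replicates 2 and 3 of both genotypes, Lars2 took 15.6% to 19.0% and members 0.185% to 0.233%. In all other libraries, Lars2 took 24.7% to 36.2% and members 0.295% to 0.333%. What set these replicates apart was not tested. Of the LSK markers, Kit was read at 283 to 435 and Cd34 at 528 to 728 in every library, whereas Ly6a, which encodes Sca-1, reached only 4.84 to 17.4. Pecam1, an endothelial gene also expressed by stem cells, stood between 17812 and 76164, whereas the other 7 stromal and endothelial markers, Cdh5 and Kdr among them, reached at most 5.04. The median of Pecam1 was 32051, against 329 for Kit, and the cause of so high a value was not tested. Of 14 myeloid markers, 8 passed the filter of a mean signal of at least 10. They included Mpo (255 to 1650) and Prtn3 (49.9 to 206), granule genes that progenitors also express, and Itgam (7.87 to 42.2). The neutrophil genes Ngp, Camp, Ltf, S100a8 and S100a9 reached at most 2.54, and Ly6g was at 0 in all 12 libraries. The filter was passed by 2 of 8 B lymphoid, 1 of 8 T and NK, 2 of 9 erythroid and 3 of 8 megakaryocyte and mast markers. The highest of each list were Ebf1 (22.6 to 288), Nkg7 (29.2 to 75.0), Car1 (6.77 to 87.5) and Vwf (12.5 to 177). Signal for the targeted gene, Fancg, was 4.76 to 24.1 (median 8.59) in the libraries labelled WT and 4.46 to 14.5 (median 7.91) in those labelled KO, so it did not separate the labels. A gene-level sum does not show which exons were read. Y-linked transcripts were low in WT replicate 3 and KO replicate 7. In sorted bulk RNA, fewer cells of a type and less RNA per cell cannot be told apart.

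Before the values by genotype, the start sites of the genes were compared. RefSeq promoters (build GRCm38.p6, from 250 bases before to 50 bases after the start) matched 47 of the 56 members, which have 57 promoters between them. The E-box CACGTG, a palindrome bound by MYC and related factors, lay in 10 of these 57 promoters (17.5%), beside 10.4% of the promoters of all genes tested and 7.15% of all 32851 promoters. Its carriers were Mdn1, Ltv1, Tex10, Pelp1, Wdr43, Utp20, Nop2, Pes1, Tsr1 and Rrn3, the last with a pair of sites. The windows below belong to the 8 carriers whose signal is described gene by gene further on. They are written 5′ to 3′ along the gene with the E-box in capitals, and reach at most 10 bases to either side.
Mdn1: attccttcacCACGTGtgtgtc
Ltv1: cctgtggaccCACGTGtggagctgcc
Tex10: gacctgcggtCACGTGagcgcggcga
Pelp1: tcctgcagacCACGTGtccggcctgc
Wdr43: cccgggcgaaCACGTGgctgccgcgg
Utp20: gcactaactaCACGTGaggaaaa
Pes1: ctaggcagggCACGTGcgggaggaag
Rrn3, distal site: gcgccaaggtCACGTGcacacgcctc
Rrn3, proximal site: acgctctgctCACGTGggccgcgtcc

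The Mdn1 window is chr4:32657147-32657168 on the plus strand, and its E-box begins 38 bases after the start site, in the 5′ UTR of GENCODE M21. In Ltv1 (chr10:13193094-13193119, minus strand) the E-box begins 28 bases after the start, also in the 5′ UTR. The sites of Wdr43 (chr17:71616222-71616247, plus strand), Utp20 (chr10:88826765-88826787, minus strand) and Pes1 (chr11:3963967-3963992, plus strand) are in the 5′ UTR as well. Those of Tex10 (chr4:48473451-48473476, minus strand) and Pelp1 (chr11:70410245-70410270, minus strand), and both of Rrn3 (chr16:13780474-13780499 and chr16:13780641-13780666, plus strand), are upstream of the annotated gene. The ETS motif CCGGAAG, on either strand, was in 33.3% of the members' promoters, 19.5% of those of genes tested and 8.86% of all. The YY1 motif AAGATGG was in 7.02%, 7.46% and 6.34% of the same sets. In 104 further ribosome biogenesis genes, listed by function, the E-box was in 17.0% of 100 promoters, the ETS motif in 48.0% and the YY1 motif in 4.00%. These are matches of letters in fixed windows, and no binding was measured.

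Levels of the members differed widely. To compare genes, signal was divided by the length of the coding transcript, as the median of the annotated CCDS transcripts. Npm1, which encodes the abundant nucleolar chaperone nucleophosmin, stood highest with a mean of 550 per kb (range 403 to 727 over 12 libraries), next to Nop56, the scaffold of box C/D snoRNPs, with 506 per kb (298 to 721). These neighbours overlapped across libraries. Ncl, encoding nucleolin, followed at 80.0 per kb over an annotated transcript of 8202 bases. Per kb of its coding sequence of 2121 bases it reached 309, against 933 for Npm1 and 546 for Nop56. Gnl3 (nucleostemin) at 69.3, Nop10 at 63.2, Ubtf at 61.9 and Noc2l at 60.9 per kb came next, with ranges that overlapped. At the bottom were Nop14 (3.18 per kb), Mdn1 (2.54 per kb, range 1.16 to 4.81) and Utp20 (1.83 per kb, range 1.02 to 2.78), all overlapping. Mdn1 and Utp20 encode some of the longest proteins of the group, and the Mdn1 transcript has 17959 bases.

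**Figure D1:**
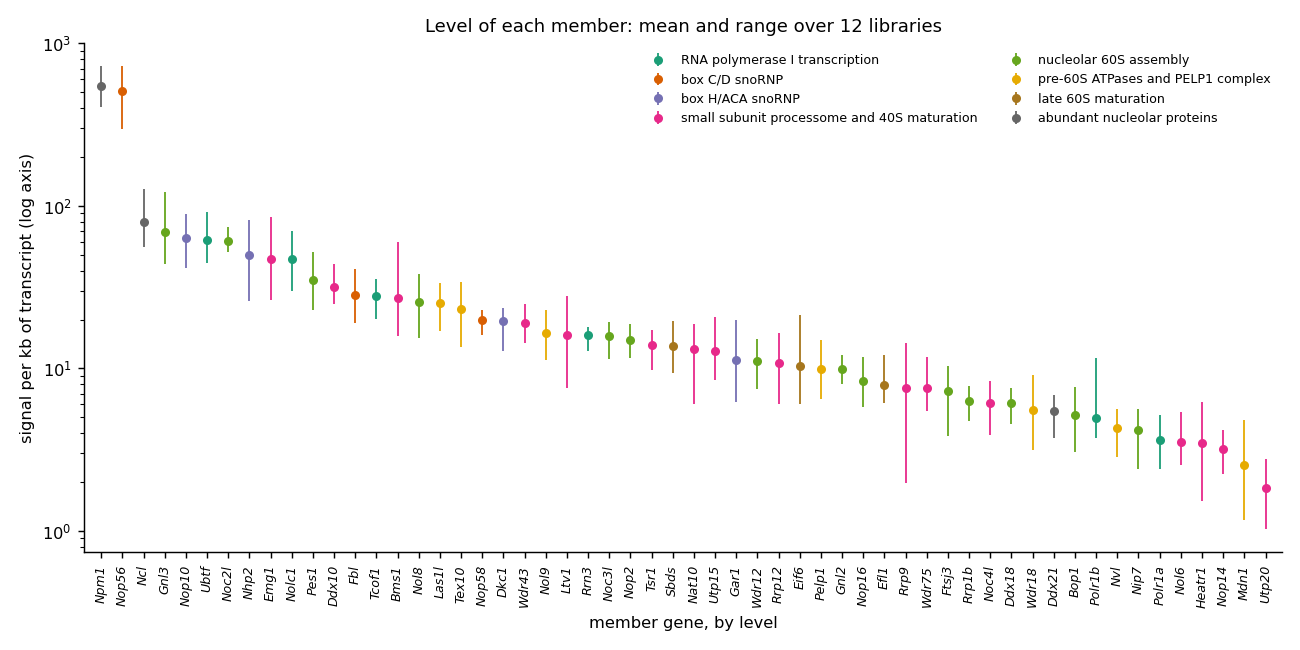
Signal per kb of transcript (log axis) of the 56 members, ordered by level and coloured by role. Points are means and bars the range over 12 libraries. Npm1 and Nop56 stand at 550 and 506, apart from a continuous slope that runs from Ncl at 80.0 to Utp20 at 1.83.

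Nop56, Npm1 and Ncl together made up 36.5% to 51.9% (median 46.0%) of the summed member signal of a library. By role, the median level per kb was 80.0 for abundant nucleolar proteins, 34.6 for the box H/ACA snoRNP and 28.4 for the box C/D snoRNP. It was 22.0 for RNA polymerase I transcription, 11.8 for the small subunit processome and 10.5 for nucleolar 60S assembly. Late 60S maturation had 10.3, and the pre-60S ATPases with the PELP1 complex had 9.89. The coefficient of variation over the 12 libraries ran from 9.21% in Rrn3 to 48.8% in Bms1, with a median of 23.7% and 40.8% in Mdn1. According to GENCODE M21, 7 members host 21 snoRNA genes in their introns, led by Nop56 with 5 and Nop58 with 4. Some values are uncertain because the transcripts share sequence with other genes: of the 31-base words of Fbl, 73.5% also occur in transcripts of other genes, and the share was 72.0% for Ddx18, 35.9% for Npm1, 34.0% for Pes1, 32.8% for Nop56 and 12.8% for Wdr12, whose shared words were spread over 2378 genes. The gene sharing most words had a mean signal of 0 for Fbl and Pes1, 0.53 for Ddx18, 0.80 for Npm1 and 9.47 for Nop56. For Wdr12 it was 49.3. These signals come from the same assignment of reads to genes. No 31-base word of Mdn1 was shared.

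The summed signal of all members did not separate the genotypes. It was 4606, 5149 and 5617 (lowest, median and highest, in this order throughout) in WT and 4210, 5417 and 6101 in KO. The KO libraries thus held both the lowest and the highest sum. Nop56, Npm1 and Ncl weigh heavily in this sum, with 36.5% to 51.9% of it. With the 54 tested members weighted equally, Mdn1 included, the mean log2 value was 5.44 to 5.70 in WT and 5.43 to 5.78 in KO. The median log2 value over these members was 5.12 to 5.49 in WT and 5.40 to 5.73 in KO, so both measures overlapped. Between single genes, 54 members passed the filter of a mean signal of at least 10, and Nop14 (mean 8.60), a small subunit factor, and Nip7 (mean 7.62), a 60S factor, did not. Of the 53 tested members other than Mdn1, 38 had a mean log2 value higher in KO and 15 a lower one, with a median log2 fold change of 0.11. Over all 8887 genes tested, 50.7% were higher in KO and the median was 0.00. With limma, 1 of these 53 members had an unadjusted p under 0.05, beside 3.67% of all genes tested (1.98% higher and 1.69% lower in KO). No member and no other gene tested passed an adjusted p of 0.05 (Benjamini-Hochberg over 8887 genes), and the adjusted limma p of every tested member other than Mdn1 was 0.9996. WT and KO values overlapped in every member, and were without overlap in 0.09% of all genes tested.

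**Figure D2:**
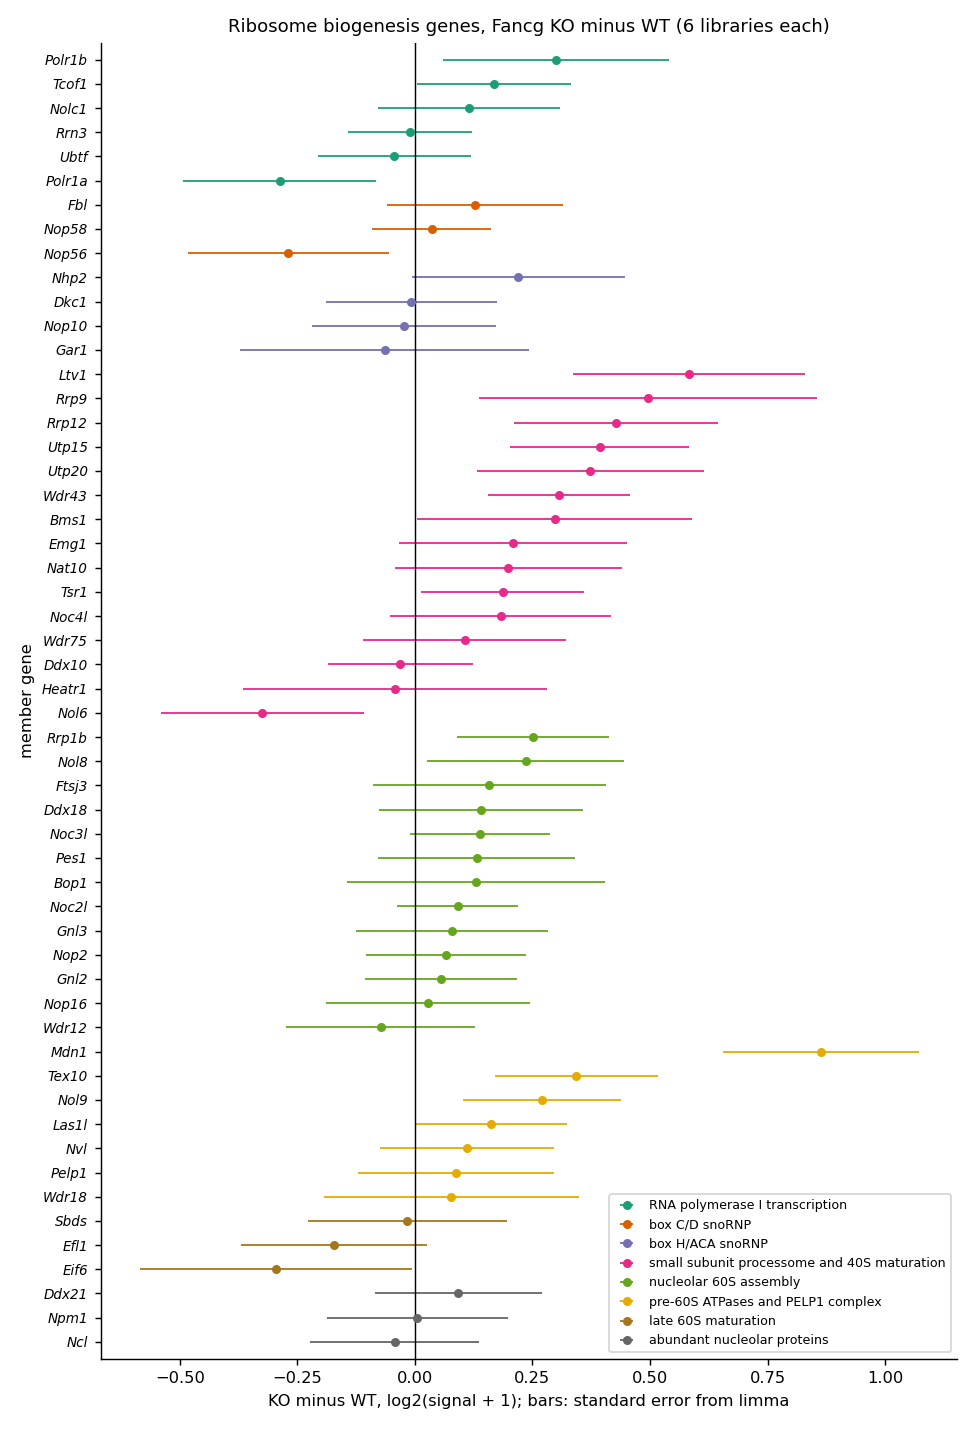
Log2 fold change (KO minus WT, on log2(signal + 1)) of the 54 members tested, grouped by role, with the standard error from limma. Most points lie right of 0, from Nol6 at −0.32 to Ltv1 at 0.58 and Mdn1 at 0.86, and most bars cross or come near 0. The 3 late 60S factors lie left of 0.

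Mdn1 (ENSMUSG00000058006.12, chr4:32657119-32775217, plus strand, GRCm38) had a signal of 20.9, 32.3 and 40.7 in WT and of 36.9, 58.0 and 86.4 in KO. The groups overlapped by 1 KO library: replicate 5, the lowest of KO, lay below the highest WT value, and the other 5 KO libraries lay above all WT libraries. Its log2 fold change was 0.86 ± 0.21 (SE, 6 libraries per group), or 1.82-fold, and it ranked 4 of 8887 by p. This rank is what brought Mdn1 into view, so it supports nothing further. In reads, a library held approximately 24.6 to 80.1 for Mdn1. KO was above WT in 6 of 6 comparisons between same-numbered libraries. Leaving out any 1 library kept the log2 fold change between 0.75 and 0.99. Both statements restate the contrast by which Mdn1 was picked, so they add no support either.

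The factors that work on the same 60S precursors as MDN1 had smaller differences. Because Mdn1 was picked for its small p in this contrast, its larger difference says nothing about these factors. Tex10, a subunit of the PELP1 complex, had a signal of 42.5, 69.2 and 78.4 in WT and of 67.5, 79.3 and 107 in KO. The groups overlapped, with 3 KO libraries above the highest WT library. Its log2 fold change was 0.34 ± 0.17 (SE, limma p = 0.066, exact permutation p = 0.067). Nol9, the polynucleotide kinase that works with LAS1L in the removal of the internal spacer ITS2, had 33.8, 42.8 and 56.0 in WT and 41.1, 52.1 and 68.6 in KO. This gave 0.27 ± 0.17 (limma p = 0.13, exact permutation p = 0.10), and 2 KO libraries exceeded all WT libraries.

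Las1l, the endonuclease of the same step, had 53.5, 59.95 and 65.4 in WT and 43.1, 69.2 and 84.5 in KO. Here 5 of 6 KO libraries lay above the highest WT library, while KO replicate 3 was the lowest of all 12, and the log2 fold change was 0.16 ± 0.16 (limma p = 0.32, exact permutation p = 0.29). Pelp1, the scaffold of its complex, had 24.2, 30.8 and 45.1 in WT and 22.3, 34.0 and 51.3 in KO. Wdr18, a further subunit, had 14.8, 20.3 and 28.2 in WT and 12.3, 21.8 and 35.5 in KO. For both, the KO range enclosed the WT range, and their log2 fold changes were 0.09 ± 0.21 and 0.08 ± 0.27. Nvl, an AAA ATPase that releases factors from nucleolar 60S precursors, had 26.8, 36.5 and 53.2 in WT and 35.4, 43.2 and 47.3 in KO, with a fold change of 0.11 ± 0.19. The 6 genes of this role other than Mdn1 had means higher in KO, with a median of 0.14 and 0 genes with an unadjusted limma p under 0.05.

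**Figure D3:**
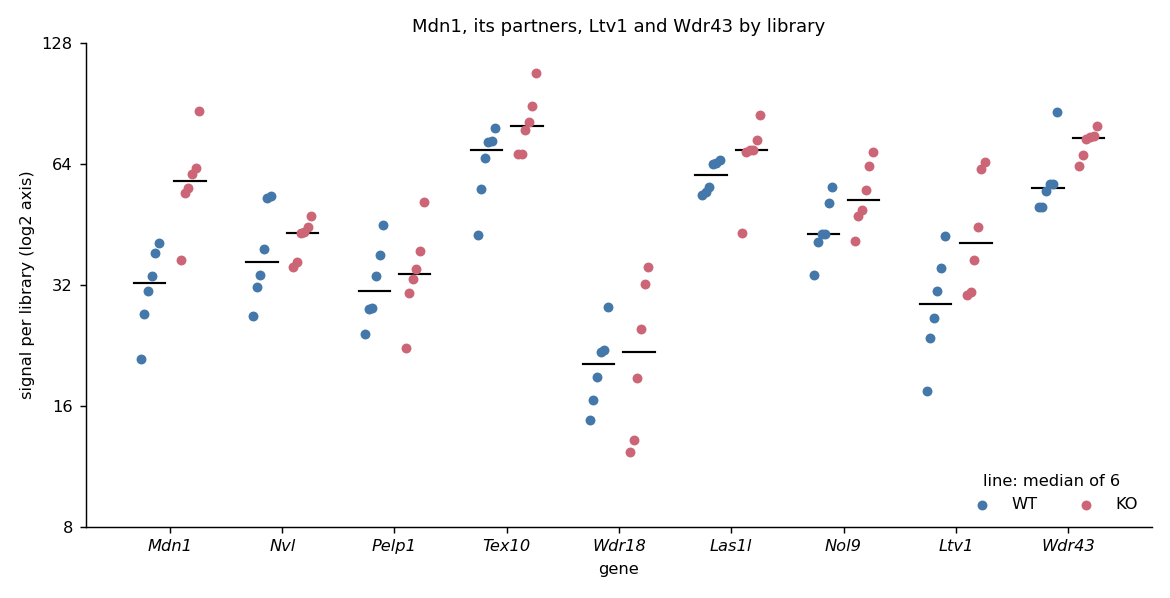
Signal per library (log2 axis) of Mdn1, of 6 factors of the same role, and of Ltv1 and Wdr43. Each point is 1 of 6 WT or 6 KO libraries, and lines are medians. Mdn1 shows 5 KO points above all WT points, and in each of the other 8 genes the KO and WT points overlap.

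The PES1-BOP1-WDR12 complex, which MDN1 releases, belongs to nucleolar 60S assembly. Pes1 had 66.4, 96.9 and 129 in WT and 71.6, 104 and 153 in KO. Bop1 had 8.23, 12.4 and 15.6 in WT and 7.64, 14.4 and 19.2 in KO. Wdr12 had 29.9, 37.5 and 41.0 in WT and 24.2, 36.6 and 49.4 in KO. Log2 fold changes were 0.13 ± 0.21, 0.13 ± 0.28 and −0.07 ± 0.20, so each was smaller than its error. Across the whole role, 12 of 13 tested genes had means higher in KO, with a median of 0.13, a range from −0.07 (Wdr12) to 0.25 (Rrp1b) and 0 genes with an unadjusted limma p under 0.05. Rrp1b, a nucleolar regulator of 60S processing, had 23.2, 26.8 and 37.8 in WT and 28.3, 34.1 and 37.2 in KO (limma p = 0.14, exact permutation p = 0.063). All 6 KO libraries were above the WT median, but WT replicate 2 was the highest of the 12. The remaining 9 tested genes (Nol8, Ftsj3, Ddx18, Noc3l, Noc2l, Gnl3, Nop2, Gnl2 and Nop16) had log2 fold changes from 0.03 to 0.24 and limma p from 0.28 upward.

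The small subunit processome and 40S maturation held the member with the only unadjusted limma p under 0.05 besides Mdn1. Ltv1 (ENSMUSG00000019814.5, chr10:13178140-13193168, minus strand), which encodes a factor for the assembly of the 40S head, had 17.4, 28.7 and 42.2 in WT and 30.1, 40.7 and 64.5 in KO. All 6 KO libraries were above the WT median, and 3 of them above the highest WT library. The log2 fold change was 0.58 ± 0.25 (SE), with a limma p of 0.031, an adjusted p of 0.9996 and an exact permutation p of 0.056, where the smallest possible exact p is 0.0022. The limma p was above 0.05 without any 1 of WT replicates 2, 3 and 4 or KO replicates 2, 5 and 7, with values up to 0.081. Approximate reads for Ltv1 were 14.4 to 59.8 per library.

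Rrp9, which binds the U3 snoRNA of the processome, was low, with 3.15, 9.72 and 22.9 in WT and 10.5, 13.7 and 17.1 in KO. Both the lowest and the highest of the 12 libraries were WT, and the log2 fold change of 0.50 ± 0.36 (limma p = 0.19, exact permutation p = 0.23) moved from 0.24 without WT replicate 4 to 0.74 without WT replicate 3. Rrp12, an export factor of both subunits, had 26.3, 38.9 and 61.4 in WT and 39.3, 49.8 and 71.4 in KO (0.43 ± 0.22, limma p = 0.067, exact permutation p = 0.091). Utp15, which links the processome to the transcription of ribosomal DNA, had 35.0, 45.3 and 57.2 in WT and 47.3, 52.2 and 85.3 in KO (0.39 ± 0.19, limma p = 0.056, exact permutation p = 0.074). In both genes, all 6 KO libraries were above the WT median and 2 above the highest WT library.

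Wdr43, another processome subunit of this transcription group, had 49.8, 55.8 and 86.0 in WT and 63.1, 74.1 and 79.2 in KO. Every WT library except replicate 5, which was the highest of the 12, lay below every KO library. Its log2 fold change was 0.31 ± 0.15 (limma p = 0.061) and the exact permutation p was 0.043. With any 1 library left out, the log2 fold change ran from 0.26 to 0.42. The limma p was under 0.05 in 3 of 23 alternatives, with 0.0078 without WT replicate 5, and reached 0.12 without WT replicate 3. Utp20, a very long processome subunit, had 9.03, 14.4 and 22.5 in WT and 14.2, 17.3 and 24.5 in KO (0.37 ± 0.24, limma p = 0.14, exact permutation p = 0.13). Nol6, which encodes a protein of the processome core, went the other way, with 12.5, 18.2 and 24.7 in WT and 11.7, 13.9 and 17.9 in KO. All 6 KO libraries of Nol6 were below the WT median, and the log2 fold change of −0.32 ± 0.22 had a limma p of 0.15 and an exact permutation p of 0.087. The other 8 tested genes of the role (Bms1, Emg1, Nat10, Tsr1, Noc4l, Wdr75, Ddx10 and Heatr1) had log2 fold changes from −0.04 to 0.30 and limma p from 0.30 upward. In this role 12 of 15 tested genes had means higher in KO, and the median of 0.21 was the highest of the 8 roles.

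**Figure D4:**
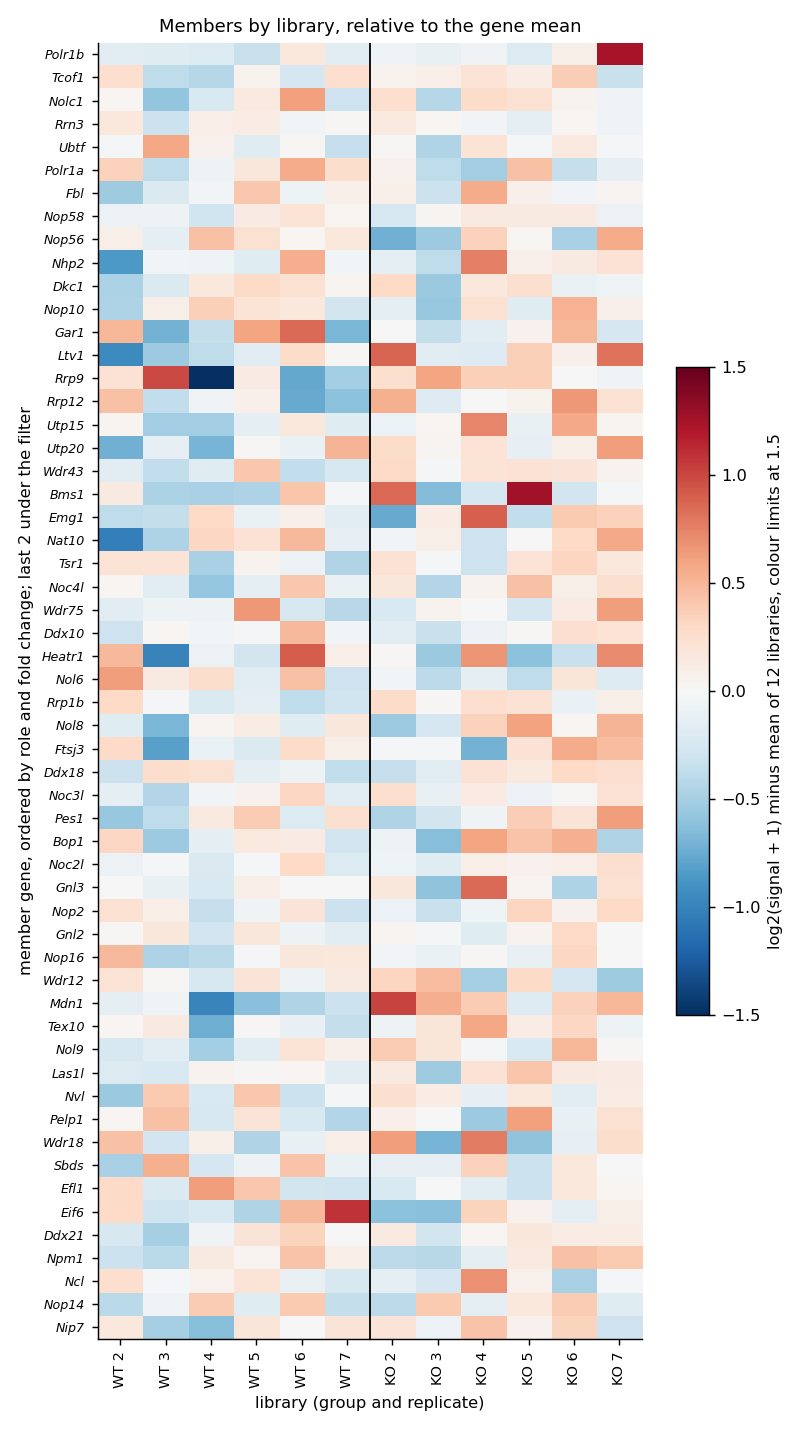
Members by library, as log2(signal + 1) minus the mean of the gene over 12 libraries (red above, blue below, colour limits at 1.5). Columns are the 6 WT and 6 KO libraries, and rows are ordered by role and fold change. The Mdn1 row is blue in all WT columns and red in all KO columns except replicate 5, and single dark cells such as Bms1 in KO replicate 5 and Polr1b in KO replicate 7 stand alone.

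RNA polymerase I transcription was split. Polr1a, the largest subunit of the enzyme, had 24.5, 37.8 and 47.9 in WT and 22.2, 27.5 and 44.2 in KO (−0.29 ± 0.20, limma p = 0.18, exact permutation p = 0.18), with 1 KO library above the WT median. Polr1b, the second subunit, had 14.9, 16.7 and 21.2 in WT and 16.4, 18.2 and 46.1 in KO (0.30 ± 0.24, limma p = 0.23, exact permutation p = 0.17). Its highest value, in KO replicate 7, stood far above the rest, and without that library the log2 fold change was 0.08. The catalytic pair of subunits thus had fold changes of opposite sign, and neither passed the test.

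The upstream binding factor Ubtf had 153, 196 and 294 in WT and 143, 195 and 226 in KO. Rrn3, the initiation factor TIF-IA, had 45.7, 60.02 and 64.5 in WT and 52.2, 57.2 and 63.8 in KO, and it varied least of all members. Tcof1, the treacle protein of the fibrillar center, had 92.5, 117 and 150 in WT and 98.8, 135 and 162 in KO. Nolc1, a nucleolar partner of snoRNPs, had 91.5, 130 and 213 in WT and 103, 154 and 168 in KO. The 4 log2 fold changes lay between −0.04 and 0.17, with standard errors of 0.13 to 0.19, and the role had 3 genes on each side of 0.

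Box C/D snoRNPs methylate ribosomal RNA. Nop56 had 835, 999.8 and 1251 in WT and 559, 799 and 1354 in KO, where KO replicate 7 was the highest and KO replicate 2 the lowest of all. Its log2 fold change was −0.27 ± 0.21 (limma p = 0.23, exact permutation p = 0.25). It ran from −0.41 without KO replicate 7 to −0.15 without KO replicate 2. Without both libraries low in Y-linked RNA it was −0.46, with an unadjusted limma p under 0.05. The paired scaffold Nop58 had 152, 185 and 216 in WT and 158, 200 and 206 in KO, and the methyltransferase Fbl had 22.8, 31.9 and 44.3 in WT and 26.5, 34.7 and 49.3 in KO. Their fold changes were 0.04 ± 0.13 and 0.13 ± 0.19.

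Box H/ACA snoRNPs convert uridine to pseudouridine, and their proteins also sit on telomerase RNA. The pseudouridine synthase Dkc1 had 38.3, 57.5 and 65.6 in WT and 36.1, 55.6 and 66.0 in KO. Nhp2 had 27.0, 48.1 and 73.3 in WT and 38.2, 53.7 and 85.3 in KO. Gar1 had 7.88, 14.9 and 25.2 in WT and 10.4, 12.8 and 19.5 in KO, and Nop10 had 49.4, 74.6 and 88.1 in WT and 46.0, 66.9 and 98.7 in KO. All 4 overlapped broadly, with log2 fold changes from −0.06 (Gar1) to 0.22 (Nhp2) and standard errors of 0.18 to 0.31.

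The late cytoplasmic steps of the 60S subunit are run by SBDS, the protein lost in Shwachman-Diamond syndrome, by the GTPase EFL1, and by EIF6, the anti-association factor that both evict. Sbds had 14.5, 19.5 and 30.4 in WT and 16.4, 19.9 and 26.6 in KO. Efl1 had 22.5, 29.1 and 43.6 in WT and 22.2, 26.4 and 31.3 in KO. Eif6 had 10.4, 15.2 and 32.1 in WT and 9.06, 14.3 and 18.7 in KO. All 3 means were lower in KO, by log2 values of −0.02 ± 0.21, −0.17 ± 0.20 and −0.30 ± 0.29, and none had a limma p under 0.32. Eif6 moved to −0.11 without WT replicate 7, its highest library.

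The mRNAs of the role of abundant nucleolar proteins did not differ beyond their error. Npm1 had 568, 788 and 1010 in WT and 563, 752 and 1014 in KO (0.01 ± 0.19). Ncl had 545, 647 and 767 in WT and 459, 611 and 1036 in KO (−0.04 ± 0.18). The RNA helicase gene Ddx21 was placed in this role, though its mRNA was low at 5.45 per kb. It had 17.7, 24.9 and 32.2 in WT and 20.8, 27.5 and 28.8 in KO (0.09 ± 0.18).

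Of the 104 further ribosome biogenesis genes, 98 were tested. Their means were higher in KO for 51 and lower for 47, with a median log2 fold change of 0.02, against 0.11 for the 53 members. Unadjusted limma p was under 0.05 in 4 of them, 2 in each direction. This is 4.08% of the list, near the 3.67% of all genes tested, and no adjusted p passed. The values of these 4 genes are given as a description. The genes were picked by their limma p, so the exact permutation p from the same libraries is no separate support. Bud23, a methyltransferase of the small subunit RNA, had 5.92, 18.3 and 22.2 in WT and 17.3, 26.9 and 32.9 in KO (0.83 ± 0.30, limma p = 0.015, exact permutation p = 0.017). Nle1, which encodes a factor that MDN1 releases from the 60S precursor, had 7.63, 11.3 and 20.4 in WT and 9.63, 18.9 and 31.0 in KO (0.64 ± 0.30, limma p = 0.048, exact permutation p = 0.084). The 60S factor Brix1 had 9.21, 12.1 and 18.3 in WT and 4.76, 7.59 and 10.4 in KO (−0.70 ± 0.27, limma p = 0.018, exact permutation p = 0.0065). The helicase gene Ddx49 had 21.1, 52.0 and 89.9 in WT and 22.2, 28.6 and 42.8 in KO (−0.67 ± 0.30, limma p = 0.043, exact permutation p = 0.091). The limma p of Nle1 was under 0.05 in 8 of 22 alternatives and reached 0.11, and that of Ddx49 was under 0.05 in 9 of 22 and reached 0.15. Leaving out a single library was enough to lose either. In Bud23, 5 of 6 KO libraries lay above all WT libraries, and in Brix1 and Ddx49 all 6 KO libraries lay below the WT median.

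Members varied together only loosely. After the group means were subtracted, the median Pearson r over 1431 pairs of members was 0.11, against 0.11 within the further ribosome biogenesis genes and 0.01 over all pairs of genes tested. All these values rest on the same 12 libraries, which share depth and composition within a library. The share of pairs with r above 0.5 was 10.5% in members and 8.16% over all genes. The box H/ACA genes had the highest median among the roles (0.37 over 6 pairs), and the closest single pairs were Tsr1 with Gnl2 (r = 0.88) and Polr1a with Bms1 (r = 0.87). Mdn1 ran from −0.73 with Nol8 and −0.65 with Pes1 to 0.56 with Nol9, with a median of −0.05 over the 53 other members.

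The library in which members deviated most was KO replicate 3, whose mean over the 54 members lay 0.24 below the KO mean on the log2 scale. The 15 proliferation markers lay 0.55 below the KO mean in the same library. The median log2 value over all genes tested was also lowest in KO replicate 3 (5.01, against 5.19 in KO replicate 7, the highest). At the other end, members were 0.15 above their group mean in WT replicate 6, where proliferation markers were 0.33 above theirs. In WT replicates 2 and 4 the deviations had opposite signs (members 0.00 and −0.10, proliferation markers −0.18 and 0.07), and in all other libraries the same sign. The part of library scaling in these deviations was not tested. Between the genotypes, 11 of 15 proliferation markers had means higher in KO, with a median log2 fold change of 0.05 and 0 with an unadjusted limma p under 0.05. Their summed signal was 1647 to 2561 in WT and 1498 to 2723 in KO, and that of 14 myeloid markers was 466 to 2398 in WT and 595 to 2584 in KO. The part of cycling or of myeloid cells in the members' values was not tested. Without KO replicate 3, 45 of the 53 members had means higher in KO and 3 (5.66%) had an unadjusted limma p under 0.05. Over all genes tested, 53.7% were then higher in KO and 4.31% had a p under 0.05. With the pair of libraries low in Y-linked transcripts left out, 34 of 53 were higher, beside 47.6% of all genes, and the median was 0.05.

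**Figure D5:**
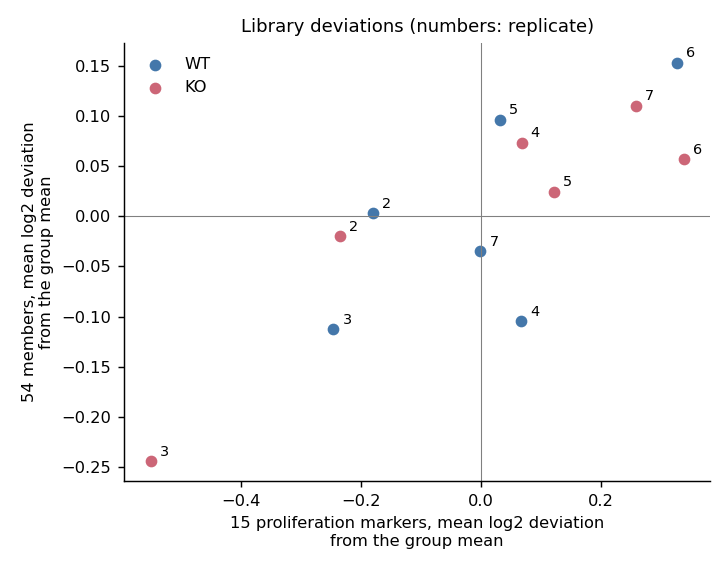
Mean log2 deviation from the group mean, for the 54 members tested (vertical) and 15 proliferation markers (horizontal). Each point is 1 library, numbered by replicate. KO replicate 3 is lowest on both axes, at −0.24 and −0.55, and WT replicate 6 is highest on the vertical axis at 0.15.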

How the data were processed

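RNA-seq of sorted LSK cells from 6 WT and 6 Fancg KO mice was analysed, from mRNA-enriched libraries of the CATS RNA-seq Kit v2. The authors deposited 1 signal value per gene and library, taken from the named tool and the values to be kallisto estimated reads scaled by the size factor of the library. The mouse genome build and annotation used for it are not given in the sources used here, nor are the cultures, litters or days behind the replicate numbers. Whole reads could not be recovered (12.2% to 13.0% of nonzero values were whole multiples of the step within 0.01), so no test for read counts was used, and depth is approximate. Groups came from the genotype label, and 0 columns were left unused.

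Values were used as deposited. The 8887 of 35999 genes whose mean signal reached 10 were tested on log2(signal + 1), which understates the change of low genes, with limma 3.58.1 in R 4.3.3 (trend, no covariate, two-sided, Benjamini-Hochberg over all genes tested). Single members were also tested with a two-sided exact permutation test of the difference in mean log2 value (scipy 1.17.1). Members held approximately 3.60 to 1704 reads per library, so counting error is part of the spread in low members. Positions and lengths came from GENCODE M21 (GRCm38), in which 35929 gene names were found, and promoters from RefSeq GRCm38.p6. Protein sequences were not analysed here.

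The 56 members, the other gene lists and the tests were chosen with earlier results of these data known. Genes named were Mdn1 and its partners, the 3 members with the highest and the 3 with the lowest fold change, members with an unadjusted limma p under 0.05, the ends of the order by level, members under the filter, the RNA polymerase I, snoRNP, late 60S and abundant nucleolar genes, the further ribosome biogenesis genes with an unadjusted limma p under 0.05, and Fancg. Utp15, Utp20, Wdr43, Rrp1b and the covarying pairs were chosen after their values were seen. Alternatives were other pseudocounts, filters and scalings, limma without trend, the replicate number as a block, and libraries left out singly or in pairs.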

Additional observations from a re-analysis of the deposited data

Results flagged for a closer look

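In 11 of 112 groups of 6 libraries (56 members, both genotypes), 1 library stood apart from the other 5 by Dixon's test at the 95% level. Independent, normally distributed values would give approximately 5.6. The test was run on signal, not on log2 values, and the members share the same 12 libraries. The 5.6 is therefore no chance level for these data. The highest library stood apart for Polr1b in WT replicate 6 (signal 21.2, others up to 16.9) and in KO replicate 7 (46.1, others up to 20.2), for Ubtf in WT replicate 3 (294, others up to 205), for Wdr43 in WT replicate 5 (86.0, others up to 57.1), and for Wdr75 in WT replicate 5 (34.9, others up to 20.8) and KO replicate 7 (34.3, others up to 23.8). The same held for Ddx10 in WT replicate 6 (138, others up to 100.3), Noc2l in WT replicate 6 (207, others up to 166), Nop16 in KO replicate 6 (18.1, others up to 14.6) and Ncl in KO replicate 4 (1036, others up to 674). Ddx21 in KO replicate 3 stood apart at the low end (20.8, others from 25.9). WT replicate 3 and KO replicate 7, both low in Y-linked transcripts, held 1 and 2 of these flags.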

How the results depend on the processing

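Over 22 or 23 alternatives each, no called gene turned its direction. The median log2 fold change of the 53 members other than Mdn1 stayed positive, between 0.08 and 0.17 with any 1 library left out. Without the filter, 836 of 21536 genes (3.88%) had an unadjusted limma p under 0.05, against 326 of 8887 (3.67%) as reported. Of the members other than Mdn1 it was 2 of 55 (3.64%). At a mean signal of at least 50 there were 91 of 3119 genes (2.92%), 0 of 23 members and 0 of 22 further ribosome biogenesis genes. Mdn1, with a mean signal of 45.6, was under this filter and not tested there. Without WT replicate 3 and KO replicate 7 together, 3 members (5.66%) had p under 0.05 (Nop56, Rrp9 and Tex10), beside 4.43% of all genes tested, and the cause was not tested. Without both replicate 3 libraries, 1 of 8887 genes passed an adjusted limma p of 0.05, and 0 of the 53 members other than Mdn1. With any 1 library left out, 275 to 383 of 8887 genes (3.09% to 4.31%) had p under 0.05. The counts were 0 to 3 of the 53 members other than Mdn1 and 3 to 5 of the 98 further genes (3.06% to 5.10%). It was 0 members without WT replicate 4, beside 3.09% of all genes. Without KO replicate 3 it was 3 members (5.66%), beside 4.31% of all genes. Ltv1 kept p under 0.05 in 15 of 22 alternatives, Brix1 in 22, Bud23 in 21, Ddx49 in 9 and Nle1 in 8. Median scaling and TMM scaling moved the log2 ratio of the summed member signal from 0.04 to 0.02 and 0.03. Same-numbered libraries deviated together with a mean correlation of 0.20 (0.09 to 0.36), against −0.04 between differently numbered ones. The main fit and the exact permutation test did not take them as pairs. In 5 of 6 WT and 4 of 6 KO libraries the best correlation was with the own number. With the replicate number as a block, 476 genes (5.36%) had p under 0.05, against 3.67% in the main fit. Of the 53 members other than Mdn1 it was 1 (1.89%) in both.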
